A study of Mus musculus with 20 samples.

Results

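The genes described here are 44 components of the postsynaptic density and of synaptic adhesion, followed in cultured mouse cortical neurons of 2 genotypes with and without oxygen and glucose deprivation. They were chosen by gene symbol, from a list of scaffolds, adhesion molecules, spine proteins and receptor auxiliary subunits, out of 14700 gene symbols in the 4 deposited tables. All 44 were present in every table. No measured value is part of that rule, but the list was drawn up with earlier results of these data known.

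The cells were cortical neurons of embryonic day 15 that had been kept in culture for 7 days. Each of the 4 groups had 5 libraries of bulk total RNA. N_WT and OGD_WT are cultures labelled wild type, and N_KO and OGD_KO are cultures labelled as knockout of the circular RNA ciRS-7, listed as Cdr1as. All 20 libraries, the wild type ones included, carry the strain label C57BL/6N-Cdr1asem1Nikr. N cultures spent the last 12 h in normoxia in a medium with D-glucose at 25 mM and pyruvate. OGD cultures spent them at 1% oxygen in the same base medium without these additions, a culture model of ischemia. The labels give the cultures batches 1, 2, 3.1, 3.2 and 3.3, and the N and OGD libraries of the same genotype and number share a batch. Whether libraries of a group come from separate animals is not given in the sources used here, so p-values measure the spread between these libraries, in values that the authors had scaled. Whether those values were also adjusted for batch is not given.

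The postsynaptic density is the protein layer beneath the receptors of an excitatory synapse. Membrane-associated guanylate kinases (the DLG family) bind receptors and adhesion molecules, DLGAP proteins tie them to SHANK proteins, and SHANK and Homer proteins connect the layer to metabotropic receptors and to the actin of the dendritic spine. Neuroligins, LRRTM and LRRC4 proteins face presynaptic partners such as neurexins across the cleft, and calcium/calmodulin-dependent kinase II (CaMKII) is an abundant enzyme of this layer. In forebrain neurons these proteins accumulate while synapses form.

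The promoter sequences of members that fell in both genotypes are shown because these members moved together. They are 4 of the members called lower in both genotypes with a log2 change of -0.75 or below in each, and each has a single listed start in the RefSeq promoter table of GRCm38.p6. Of the 44 members, 33 had an entry. Each line gives the 250 bases before the start, 5′ to 3′ on the gene's strand, with matches of the searched motifs in capitals.
Lrrc4, chr6:28831748-28831997, minus strand: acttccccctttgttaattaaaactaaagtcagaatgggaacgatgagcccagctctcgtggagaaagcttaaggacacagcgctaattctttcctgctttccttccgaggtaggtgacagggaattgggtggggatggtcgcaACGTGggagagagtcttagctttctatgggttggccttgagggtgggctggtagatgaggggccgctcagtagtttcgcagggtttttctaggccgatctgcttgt
Lrrc4c, chr2:96317919-96318168, plus strand: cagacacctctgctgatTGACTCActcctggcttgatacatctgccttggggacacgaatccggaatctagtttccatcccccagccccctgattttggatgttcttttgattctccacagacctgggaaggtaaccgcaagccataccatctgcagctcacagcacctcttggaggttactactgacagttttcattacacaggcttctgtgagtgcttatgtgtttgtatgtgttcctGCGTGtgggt
Nrgn, chr9:37552746-37552995, minus strand: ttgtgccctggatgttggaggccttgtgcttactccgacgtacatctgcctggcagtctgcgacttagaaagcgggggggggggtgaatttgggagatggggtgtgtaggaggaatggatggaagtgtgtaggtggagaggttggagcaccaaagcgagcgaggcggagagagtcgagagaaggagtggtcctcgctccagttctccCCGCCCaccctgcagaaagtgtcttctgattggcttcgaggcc
Cnih3, chr1:181352378-181352627, plus strand: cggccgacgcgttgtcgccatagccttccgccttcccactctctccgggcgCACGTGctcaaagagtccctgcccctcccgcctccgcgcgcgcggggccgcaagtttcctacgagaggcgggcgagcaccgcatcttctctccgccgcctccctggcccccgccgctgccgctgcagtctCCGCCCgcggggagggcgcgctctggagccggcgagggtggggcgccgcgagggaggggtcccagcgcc
The motifs were ACGTG and GCGTG (cores of the hypoxia response element), TGANTCA (AP-1), TGACGTCA (the cAMP response element) and GGGCGG (the GC box), each read on both strands. In Cnih3 the run CACGTG holds ACGTG on both strands. The GC box appears as CCGCCC in Nrgn and Cnih3, where it lies on the opposite strand. For Nrgn the GENCODE annotation of GRCm38 differs from the RefSeq start and places the gene at chr9:37544492-37552904. Part of the printed Nrgn stretch, with its CCGCCC, lies inside that gene.

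The share of promoters that hold each motif is given for the members and for all measured genes, and their difference was not tested. ACGTG was in 15.2% of the 33 member promoters and in 22.3% of the 10147 promoters of genes in the wild type OGD table. GCGTG was in 39.4% and 46.9%, and GGGCGG in 51.5% and 61.0%. Among the 13 promoters of members called lower in both genotypes, ACGTG was in 15.4%, GCGTG in 38.5%, GGGCGG in 69.2%, TGANTCA in 7.69% and TGACGTCA in 0.0%. TGANTCA was in 3.03% of the member promoters against 3.5%, and TGACGTCA in 0.0% against 2.94%. A match is a string of letters and not a measured binding site. Dlg1 and Nrxn3, the members called higher in both genotypes, have 4 and 3 listed starts, and reads per gene do not tell which was used.

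Facts of the whole set of libraries were as follows. Between 7071506 and 16658617 reads were recovered for a library. Cdr1as had 5 to 16 reads in N_KO libraries against 700 to 1365 in N_WT, and 2 to 14 in OGD_KO against 545 to 1912 in OGD_WT, which checks the genotype labels. All 16 pan-neuronal marker genes were measured, with summed levels of 8250 to 9850 CPM in N_WT and 8640 to 9190 CPM in N_KO. CPM are depth-normalised read counts on the authors' scaling. None of the 8 microglial markers was in the tables. The lowest count of a member in the OGD tables was 18 reads, in Synpo, and 37 members had at least 100 reads in every library.

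Under OGD many members of the postsynaptic set fell and few rose. In wild type cultures 20 members were called lower and 2 higher, at a limma Benjamini-Hochberg adjusted p under 0.05, and 22 were not called. Of all 14235 genes tested, 22.8% were called lower and 21.6% higher, against 45.5% and 4.55% of the members. In KO cultures 18 members were called lower and 2 higher, or 40.9% and 4.55%, against 19.9% and 21.0% of all 14375 genes. The median log2 fold change of the members was -0.39 in wild type and -0.36 in KO, beside -0.03 and 0.00 for all genes. At an unadjusted p under 0.05, 27 members differed in wild type, where 51.4% of all genes did, and 25 in KO, where 49.5% did. In bulk RNA, fewer cells of a type and less RNA per cell cannot be told apart.

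The calls fell largely on the same genes in both genotypes. The 18 members called lower in KO were all called lower in wild type, and Dlg1 and Nrxn3 were called higher in both. Lrrtm2 and Ppp1r9b passed the threshold in wild type and not in KO, and 22 members passed in neither genotype. The fitted change had the same sign in both genotypes for 40 of 44 members. The shares of all genes called the same way, or with the same sign, in both genotypes were not counted. Whether this agreement is unusual therefore cannot be said. In 14 members called lower in wild type all OGD libraries lay below all N libraries, a pattern found in 13.1% of all genes. In KO this held for 8 members, against 12.4% of all genes. Counting both directions, 16 members in wild type and 10 in KO had groups that did not overlap, against 26.9% and 25.8% of all genes.

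The scaling bears on the direction of small changes. Scaling by total recovered reads in place of the authors' scaling moved the median of all genes to -0.30 in wild type and -0.28 in KO. It then called 33 members lower and 0 higher in wild type and 31 lower and 0 higher in KO, with member medians of -0.67 and -0.65. Of all genes it called 7369 in wild type and 6768 in KO, against 6313 and 5884 on the authors' scaling. Median ratio scaling left the medians of all genes at -0.02 and -0.01 and called 19 members lower and 2 higher in wild type. In KO it called 18 lower and 2 higher. Of all genes it called 6259 and 5854. Dlg1 was called under it at 0.66 and 0.6, and Nrxn3 at 0.59 and 0.6. Calls of a rise therefore depend on the scaling. They were kept under median ratio scaling and lost under total read scaling, which was chosen after seeing the data.

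**Figure D1:**
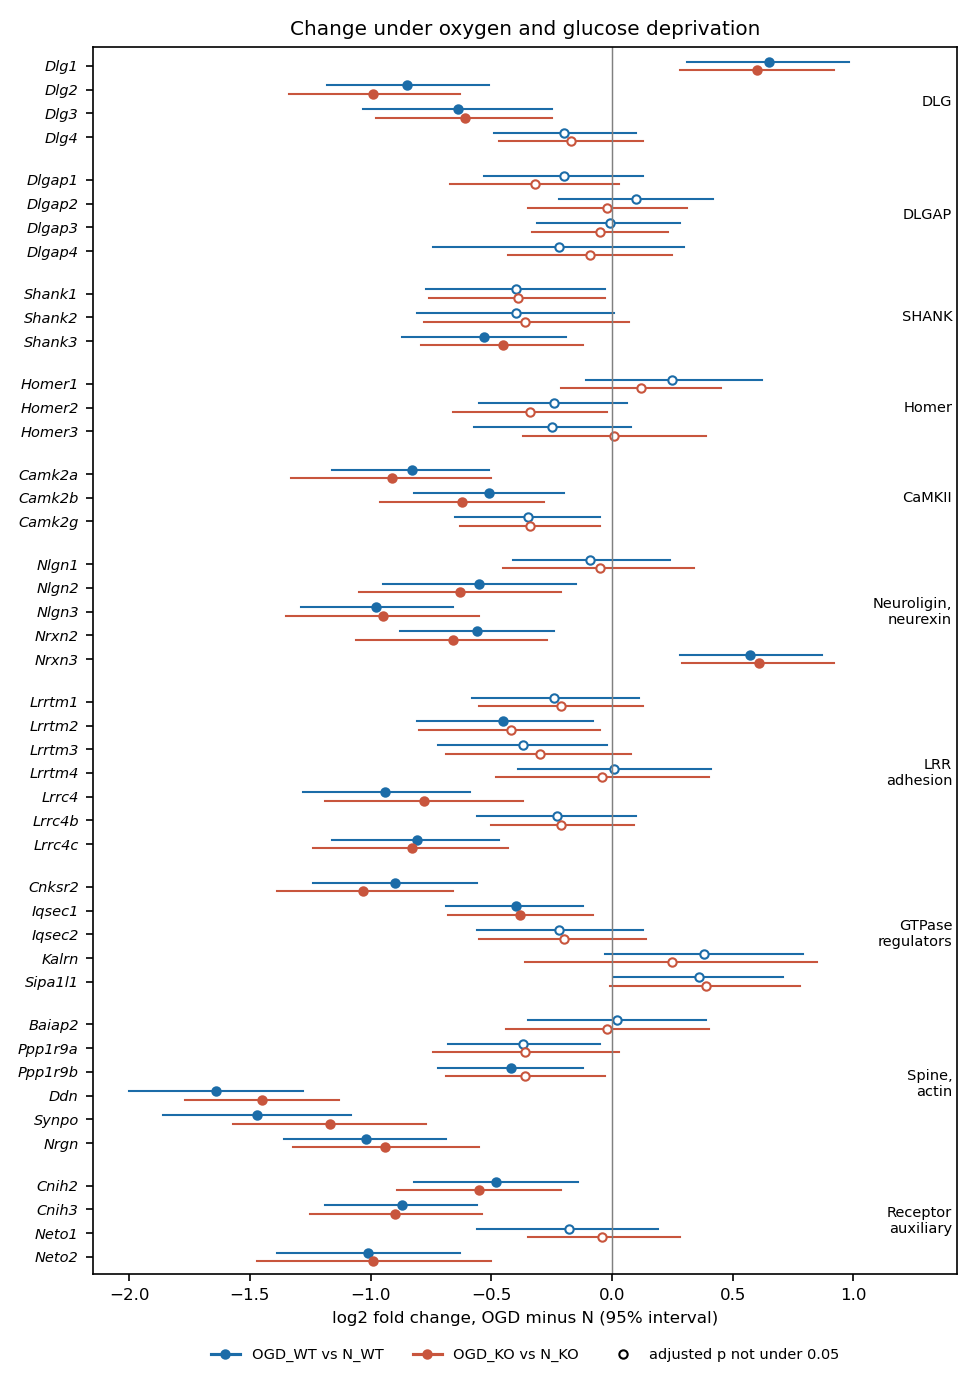
Log2 fold change under OGD (x axis, OGD minus N, with 95% intervals from limma) of the 44 members, grouped by role on the y axis, in wild type (blue) and KO (red) cultures of 5 libraries per group. Filled points are called; most lie left of 0, Ddn and Synpo are farthest left, and Dlg1 and Nrxn3 are the 2 filled members to the right, which total read scaling does not call.

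Among the DLG scaffolds, Dlg2 and Dlg3 fell, Dlg1 rose relative to the scaled library and Dlg4 was not called. Dlg2 (chr7:90476672-92449247, in the GENCODE annotation of GRCm38) encodes a scaffold that binds NMDA receptors. It was at 8.47, 8.36, 8.58, 8.58 and 8.67 log2 CPM in N_WT replicates 1 to 5 and at 7.63, 7.32, 7.64, 8.25 and 7.59 in OGD_WT. In KO it was at 8.51, 8.57, 8.55, 8.2 and 8.67 in N_KO and at 7.64, 8.0, 7.45, 7.2 and 7.28 in OGD_KO. Every OGD library lay below every N library in both genotypes. Dlg2 fell by 0.85 on the log2 scale in wild type (SE 0.16, limma adjusted p 0.000254) and by 0.99 in KO (SE 0.17, limma adjusted p 0.000156), a decrease of 1.8-fold and 1.98-fold.

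Dlg1 (chr16:31663443-31875129) encodes a scaffold that also acts at cell junctions outside neurons. It was at 5.95, 6.01, 6.04, 5.73 and 6.2 log2 CPM in N_WT and at 6.72, 6.35, 6.58, 7.16 and 6.35 in OGD_WT. The KO cultures had it at 5.95, 5.51, 5.99, 6.33 and 6.07 in N_KO and 6.57, 6.7, 6.55, 6.62 and 6.42 in OGD_KO. The groups did not overlap, and in KO the gap between the highest N and the lowest OGD library was small. Dlg1 rose by 0.65 in wild type (SE 0.16, limma adjusted p 0.00272) and by 0.60 in KO (SE 0.15, limma adjusted p 0.00413), while under total read scaling it was not called, at 0.37 (limma adjusted p 0.0571) and 0.31 (limma adjusted p 0.123). Dlg3, another NMDA receptor scaffold, fell by 0.64 in wild type and 0.61 in KO (limma adjusted p 0.00914 and 0.00883), with overlapping groups. Dlg4, the scaffold most often used as a marker of the postsynaptic density, had log2 differences of -0.20 (95% interval -0.49 to 0.10) and -0.17 (-0.47 to 0.13), within the spread between libraries.

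None of the 4 DLGAP genes, which encode the linkers between DLG and SHANK proteins, was called in either genotype. Their log2 differences ranged from -0.22 to 0.10 in wild type and from -0.32 to -0.02 in KO. Dlgap4 had the largest spread of these. It was at 6.9, 7.41, 6.7, 6.83 and 5.95 log2 CPM in N_WT and at 6.69, 6.0, 6.69, 5.9 and 7.42 in OGD_WT. Replicate 5 had the lowest N value and the highest OGD value, so that culture alone moved up by 1.47 while the others had differences between -1.41 and -0.01. Without both libraries of culture 5 the log2 difference of Dlgap4 was -0.64 (limma adjusted p 0.000588), and without those of culture 2 it was 0.08. In KO Dlgap4 was at 6.62, 6.61, 6.83, 6.65 and 6.91 in N_KO and at 6.58, 7.08, 6.55, 6.17 and 6.81 in OGD_KO, and the groups overlapped.

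Of the SHANK genes, the master scaffolds beneath the DLG layer, Shank3 fell and Shank1 and Shank2 were not called. Shank3 was at 6.61, 6.51, 6.72, 6.85 and 6.89 log2 CPM in N_WT and at 6.19, 5.61, 6.22, 6.54 and 6.39 in OGD_WT. Its KO values were 6.68, 6.7, 6.6, 6.24 and 6.78 in N_KO and 6.18, 6.42, 6.11, 5.68 and 6.33 in OGD_KO. All 10 cultures were lower under OGD, although the groups overlapped in both genotypes. Shank3 fell by 0.53 in wild type (SE 0.16, limma adjusted p 0.0128) and by 0.45 in KO (SE 0.16, limma adjusted p 0.030). The KO call held only without OGD_KO replicate 2 or 5 or N_KO replicate 4, and without any other single library its limma adjusted p was between 0.0533 and 0.074. The wild type call was lost without both libraries of culture 3, at -0.53 (limma adjusted p 0.054). Shank1 was at -0.40 and -0.39, and Shank2 at -0.40 and -0.36, with limma adjusted p-values from 0.0748 to 0.166.

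The Homer genes, whose products tie SHANK to metabotropic glutamate receptors, gave no call. Homer1 was at 7.01, 7.02, 7.07, 7.08 and 7.25 log2 CPM in N_WT and at 7.46, 7.03, 7.4, 7.96 and 6.84 in OGD_WT. In KO it was at 7.03, 6.98, 7.07, 7.17 and 6.95 in N_KO and at 7.14, 7.67, 7.08, 6.82 and 7.06 in OGD_KO. The OGD libraries spread more widely than the N libraries and enclosed them in both genotypes. The log2 difference was 0.25 in wild type (95% interval -0.11 to 0.62) and 0.12 in KO (-0.21 to 0.45). Without both libraries of wild type culture 5 it was 0.42 (limma adjusted p 0.0255). Homer1 also yields a short activity-induced transcript, which reads per gene do not separate. Homer2 was at -0.24 and -0.34, and Homer3 at -0.25 and 0.01.

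Among the CaMKII subunits, Camk2a and Camk2b fell and Camk2g was not called. Camk2a encodes the alpha subunit, which is characteristic of excitatory forebrain neurons. It was at 6.91, 6.5, 6.96, 7.08 and 7.18 log2 CPM in N_WT and at 5.94, 5.87, 6.07, 6.45 and 6.14 in OGD_WT. The KO cultures had it at 7.01, 6.27, 7.0, 7.01 and 7.31 in N_KO and 6.16, 6.47, 5.96, 6.01 and 5.46 in OGD_KO. The wild type groups were separate, and in KO replicate 2 went the other way and made the groups overlap. Camk2a fell by 0.83 in wild type (SE 0.16, limma adjusted p 0.000215) and by 0.91 in KO (SE 0.20, limma adjusted p 0.00128). Camk2b, the actin-binding beta subunit, fell by 0.51 and 0.62 (limma adjusted p 0.00859 and 0.00521). Camk2g was lower in all 10 cultures, at -0.35 and -0.34, and just missed the threshold (limma adjusted p 0.0522 and 0.0595).

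**Figure D2:**
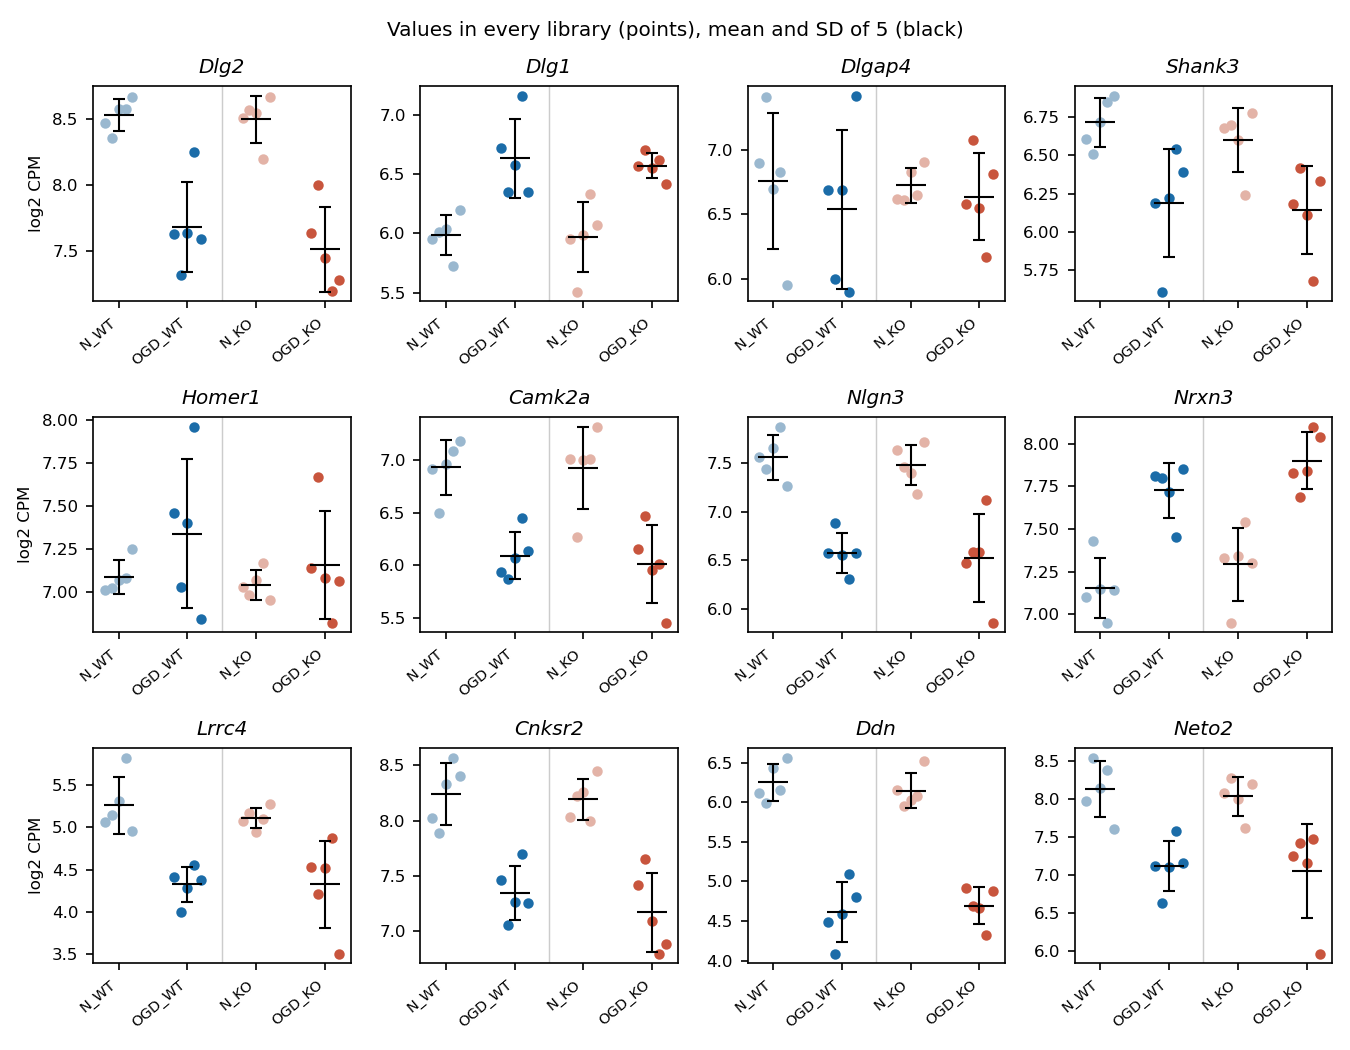
Log2 CPM (y axis, a separate scale in each panel) of 12 members in every library, by group on the x axis, with the mean and SD of 5 libraries in black. OGD libraries sit below N libraries for Dlg2, Nlgn3, Lrrc4, Cnksr2, Ddn and Neto2, above them for Dlg1 and Nrxn3 (rises that total read scaling does not call), and among them for Dlgap4 and Homer1.

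Neuroligins are postsynaptic partners of presynaptic neurexins, and their genes did not move together. Nlgn3 (chrX:101299168-101325963) had the largest fall of the 5 neuroligin and neurexin members. It was at 7.56, 7.44, 7.65, 7.87 and 7.26 log2 CPM in N_WT and at 6.57, 6.88, 6.55, 6.31 and 6.57 in OGD_WT. Its KO values were 7.63, 7.46, 7.4, 7.18 and 7.71 in N_KO and 6.47, 6.59, 6.58, 7.12 and 5.86 in OGD_KO. Neither genotype had overlapping groups, though OGD_KO replicate 4 came close to the lowest N_KO library. Nlgn3 fell by 0.98 in wild type (SE 0.15, limma adjusted p 2.73e-05) and by 0.95 in KO (SE 0.19, limma adjusted p 0.00064). Nlgn2, the neuroligin of inhibitory synapses, fell by 0.55 and 0.63 (limma adjusted p 0.0262 and 0.0167). The wild type call of Nlgn2 was lost without OGD_WT replicate 5 or any of N_WT replicates 1 to 4 (limma adjusted p at most 0.0797), and the KO call without N_KO replicate 2 or 4 (at most 0.053). Nlgn1, found mainly at excitatory synapses, was at -0.09 (95% interval -0.41 to 0.24) and -0.05 (-0.45 to 0.34).

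The neurexins went in opposite directions. Nrxn2 fell by 0.56 in wild type and 0.66 in KO (limma adjusted p 0.00558 and 0.00906). Nrxn3 (chr12:88722876-90334935) was at 7.1, 7.43, 7.15, 6.95 and 7.14 log2 CPM in N_WT and at 7.81, 7.8, 7.72, 7.45 and 7.85 in OGD_WT. In KO it was at 7.33, 6.95, 7.34, 7.54 and 7.3 in N_KO and at 7.83, 7.69, 7.84, 8.1 and 8.04 in OGD_KO. All OGD libraries exceeded all N libraries of their genotype, in wild type by a very small margin. Nrxn3 rose by 0.57 in wild type (SE 0.14, limma adjusted p 0.00269) and by 0.61 in KO (SE 0.15, limma adjusted p 0.00363), while under total read scaling it was not called, at 0.29 (limma adjusted p 0.121) and 0.31 (limma adjusted p 0.105). Dlg1 and Nrxn3 were the only members higher in all 10 cultures, with changes of 0.16 to 1.43 and 0.37 to 0.74. How many of all genes were higher in every culture was not counted.

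Of the 7 leucine-rich repeat adhesion genes, 3 were called lower in wild type and 2 in KO. Lrrc4 and Lrrc4c, whose products bind netrin-G proteins of the axon, fell in both genotypes, while Lrrc4b, whose product binds receptor phosphatases, was at -0.23 and -0.21 and not called. Lrrc4 was at 5.06, 5.15, 5.31, 5.82 and 4.96 log2 CPM in N_WT and at 4.41, 4.0, 4.29, 4.55 and 4.38 in OGD_WT. The KO cultures had it at 5.08, 5.17, 4.94, 5.1 and 5.27 in N_KO and 4.53, 4.21, 4.52, 4.87 and 3.51 in OGD_KO. The groups were separate in both genotypes, and OGD_KO replicate 5 was the lowest of all 20 libraries. Lrrc4 fell by 0.94 (SE 0.17, limma adjusted p 0.000114) and by 0.78 (SE 0.20, limma adjusted p 0.00366), and Lrrc4c by 0.81 and 0.83 (limma adjusted p 0.00045 and 0.00225). These are 2 of the genes whose promoters are printed above.

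Of the LRRTM genes, which encode postsynaptic neurexin ligands, Lrrtm2 alone passed the threshold, and in wild type only at the margin. It fell by 0.45 there (SE 0.18, limma adjusted p 0.0443) and was at -0.42 in KO (limma adjusted p 0.0656), and the difference between these changes was 0.01 in a joint fit (95% interval -0.59 to 0.62). Its wild type call held only without OGD_WT replicate 4 or N_WT replicate 5, with a limma adjusted p of up to 0.122 otherwise, and with the replicate block described under processing its limma adjusted p was 0.0668. Lrrtm1, Lrrtm3 and Lrrtm4 were at -0.24, -0.37 and 0.01 in wild type and at -0.21, -0.30 and -0.04 in KO.

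Among regulators of small GTPases in the spine, Cnksr2 fell most. Cnksr2 (chrX:157821436-158043294) encodes a scaffold that joins Ras signalling to the DLG layer. It was at 8.02, 7.89, 8.33, 8.57 and 8.4 log2 CPM in N_WT and at 7.46, 7.05, 7.26, 7.7 and 7.25 in OGD_WT. Its KO values were 8.03, 8.22, 8.26, 8.0 and 8.45 in N_KO and 7.41, 7.65, 7.09, 6.79 and 6.88 in OGD_KO. Both genotypes had separate groups and a lower value under OGD in all 10 cultures. Cnksr2 fell by 0.90 in wild type (SE 0.16, limma adjusted p 0.000149) and by 1.03 in KO (SE 0.17, limma adjusted p 0.000145), that is 1.87-fold and 2.04-fold. Iqsec1, an activator of the GTPase Arf, fell by 0.40 and 0.38 (limma adjusted p 0.0205 and 0.043). The wild type call of Iqsec1 was lost without OGD_WT or N_WT replicate 3 (limma adjusted p at most 0.067). Its KO call held only without OGD_KO replicate 4 or N_KO replicate 2 (at most 0.0946 otherwise), and was lost with the replicate block (limma adjusted p 0.0599).

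The other GTPase regulators were not called. Iqsec2 was at -0.22 and -0.20, and Sipa1l1, which inactivates Rap, was at 0.36 and 0.39 (limma adjusted p 0.0927 and 0.108). Kalrn, a GTPase activator of spines, was at 0.38 (95% interval -0.03 to 0.79) and 0.25 (-0.36 to 0.85). In OGD_KO, Kalrn ranged from 7.64 in replicate 4 to 10.04 in replicate 5, the widest spread of the members there (SD 0.86).

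The genes of spine actin and calmodulin binding held the largest falls of the whole set. Ddn (chr15:98803777-98809490) encodes dendrin, a protein of dendrites and spines. It was at 6.12, 5.99, 6.43, 6.16 and 6.56 log2 CPM in N_WT and at 4.49, 4.09, 4.59, 5.1 and 4.8 in OGD_WT. In KO it was at 6.15, 5.95, 6.03, 6.08 and 6.52 in N_KO and at 4.92, 4.69, 4.66, 4.33 and 4.88 in OGD_KO. The groups were far apart, and every culture fell by at least 1.06. Ddn fell by 1.64 in wild type (SE 0.17, limma adjusted p 2.73e-07) and by 1.45 in KO (SE 0.15, limma adjusted p 1.14e-06), that is 3.12-fold and 2.73-fold.

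Synpo, which organises the spine apparatus, fell by 1.47 in wild type (SE 0.19, limma adjusted p 3e-06) and by 1.17 in KO (SE 0.19, limma adjusted p 0.000111). It had 61 to 113 reads in N_WT libraries and 18 to 33 in OGD_WT, and 55 to 106 in N_KO and 21 to 41 in OGD_KO. These were the lowest counts of the set, and the groups did not overlap. Nrgn, the calmodulin-binding neurogranin of dendrites, fell by 1.02 and 0.94 (limma adjusted p 3.76e-05 and 0.000536). Ppp1r9b, the spinophilin gene, fell by 0.42 in wild type (limma adjusted p 0.0218) and was at -0.36 in KO (limma adjusted p 0.0761), with a difference between these changes of 0.05 (95% interval -0.44 to 0.54). The wild type call of Ppp1r9b was lost without OGD_WT replicate 3 or N_WT replicate 1 or 3 (limma adjusted p at most 0.056). Ppp1r9a was at -0.37 and -0.36, and Baiap2, which links small GTPases to actin, at 0.02 and -0.02, and neither was called.

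Of the receptor auxiliary subunits, Cnih2, Cnih3 and Neto2 fell in both genotypes and Neto1 was not called. Neto2 (chr8:85636588-85700924) encodes an auxiliary subunit of kainate receptors. It was at 7.97, 8.54, 8.14, 8.38 and 7.6 log2 CPM in N_WT and at 7.12, 6.63, 7.1, 7.57 and 7.15 in OGD_WT. The KO cultures had it at 8.07, 8.28, 8.0, 7.61 and 8.2 in N_KO and 7.24, 7.42, 7.15, 7.47 and 5.96 in OGD_KO. The groups were separate by narrow margins, and OGD_KO replicate 5 stood well below the other libraries. Neto2 fell by 1.01 in wild type (SE 0.18, limma adjusted p 0.000161) and by 0.99 in KO (SE 0.23, limma adjusted p 0.00248).

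Cornichon proteins escort AMPA receptors and shape their gating. Cnih3 fell by 0.87 in wild type (SE 0.15, limma adjusted p 1e-04) and by 0.90 in KO (SE 0.17, limma adjusted p 0.000373), with separate groups in both. Cnih2 fell by 0.48 and 0.55 (limma adjusted p 0.0223 and 0.0114). The wild type call of Cnih2 was lost without OGD_WT replicate 1 or 2 or N_WT replicate 2 or 4 (limma adjusted p at most 0.0646). Neto1, the close relative of Neto2, was at -0.18 (95% interval -0.56 to 0.19) and -0.04 (-0.35 to 0.28).

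The 10 cultures differed in how the set moved. Within a culture, the OGD library minus the N library gave a median over the 44 members of -0.25 to -0.51 in wild type and of -0.43 to -0.46 in KO cultures 1, 3, 4 and 5. KO culture 2 had a median of 0.05, with 20 members lower and 24 higher, although its pan-neuronal median was -0.56. Wild type culture 5 was also mixed, with 27 members lower and 17 higher. In the other cultures 33 to 38 members were lower. Across all 10 cultures 15 members were lower in each, among them Ddn, Synpo, Nrgn, Nlgn3, Cnksr2, Dlg2, Lrrc4, Cnih3 and Neto2. The share of all genes lower in every culture was not counted, so whether 15 is unusual cannot be said.

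No batch label has enough cultures of both genotypes for a test within it. In the cultures labelled 3.1, 3.2 or 3.3 alone, which are 4 in wild type and 3 in KO and pool these 3 labels, limma called 15 members lower and 2 higher in wild type and 10 lower and 0 higher in KO, with medians of -0.36 and -0.30. The same fits called 4916 of all genes in wild type and 2341 in KO, against 6313 and 5884 with all cultures. Ddn was at -1.64 and -1.55 there, Cnksr2 at -0.98 and -1.12, and Neto2 at -1.05 and -1.08, each called in both genotypes. In KO, Dlg1 was at 0.61 and Nrxn3 at 0.67 in these cultures, not called (limma adjusted p 0.183 and 0.163). Fewer cultures entered these fits.

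**Figure D3:**
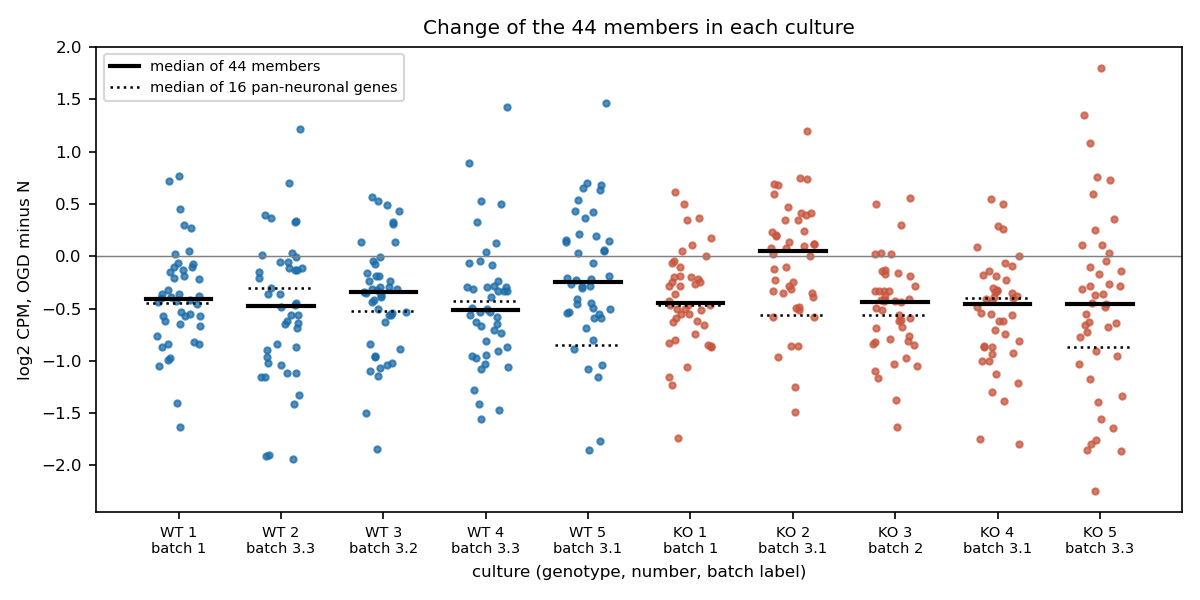
Change of each of the 44 members in each culture (y axis, log2 CPM in OGD minus N) by culture, with its batch label, on the x axis; solid lines are the median of the members and dotted lines the median of 16 pan-neuronal genes. The members' median lies below 0 in 9 cultures and at 0.05 in KO culture 2.

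Other synaptic genes, from lists that hold no member, were set beside these, on the authors' scaling. Of 46 other postsynaptic genes, 14 were called lower and 3 higher in wild type and 11 and 2 in KO, with medians of -0.14 and -0.11. Frmpd4, a DLG-binding spine scaffold, fell by 1.73 and 1.61 (limma adjusted p 2.08e-07 and 4.82e-07), and Sipa1l2, a relative of Sipa1l1, rose by 1.14 and 1.06 (limma adjusted p 5.75e-06 and 3.44e-05). Of 54 other adhesion genes, 28 were called lower and 2 higher in wild type and 25 and 3 in KO, with medians of -0.44 and -0.38. Lgi2, a secreted synaptic protein, was called lower at -1.68 and -1.67, and Flrt3, a latrophilin ligand, rose by 0.70 and 0.69. Of 13 other receptor auxiliary genes, 3 were called lower in each genotype, among them Cacng2, the AMPA receptor regulator stargazin, at -1.21 and -1.41, and 1 was called higher in wild type and 0 in KO.

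Presynaptic vesicle genes were called lower in 55.9% in wild type and 73.5% in KO. Of 34, 19 were called lower and 1 higher in wild type and 25 and 0 in KO, with medians of -0.55 and -0.64. Slc17a7, the vesicular glutamate transporter of cortical neurons, was called lower at -1.69 and -1.62 (limma adjusted p 7.25e-07 and 3.28e-05). Whether these lists differ from the members was not tested.

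Markers of cell types moved as well. Of 16 pan-neuronal genes, 8 were called lower in wild type and 9 in KO and 0 higher, with medians of -0.46 and -0.55, and their summed level was 5490 to 8630 CPM in OGD_WT and 5470 to 7710 in OGD_KO. The summed level of the 44 members was 5100 to 6000 CPM in N_WT and 3960 to 4870 in OGD_WT, and 5030 to 5740 in N_KO and 3510 to 4900 in OGD_KO. The change of 17 members in wild type and 16 in KO lay below the pan-neuronal median of that genotype. All 12 proliferation genes were called higher in both genotypes, with medians of 1.07 and 1.18, and their sum was 579 to 771 CPM in N_WT against 1100 to 1970 in OGD_WT, and 542 to 901 in N_KO against 1330 to 1780 in OGD_KO. Of 11 measured astrocyte genes, 6 were called higher and 1 lower in wild type and 5 and 0 in KO, with sums of 1540 to 2040 CPM in N_WT, 2410 to 3030 in OGD_WT, 1470 to 1950 in N_KO and 2060 to 2800 in OGD_KO. Of 8 measured oligodendrocyte lineage genes, 1 was called higher and 2 lower in wild type and 3 and 0 in KO, with sums of 288 to 357 CPM in N_WT, 325 to 487 in OGD_WT, 207 to 392 in N_KO and 278 to 396 in OGD_KO. Mog and Mag, the defining markers of mature oligodendrocytes, were not in the tables. Of 9 endothelial and mural genes, 2 were in the wild type table and 3 in the KO table, with sums of at most 9.07 CPM. The part of these shifts in the members' changes was not tested.

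**Figure D4:**
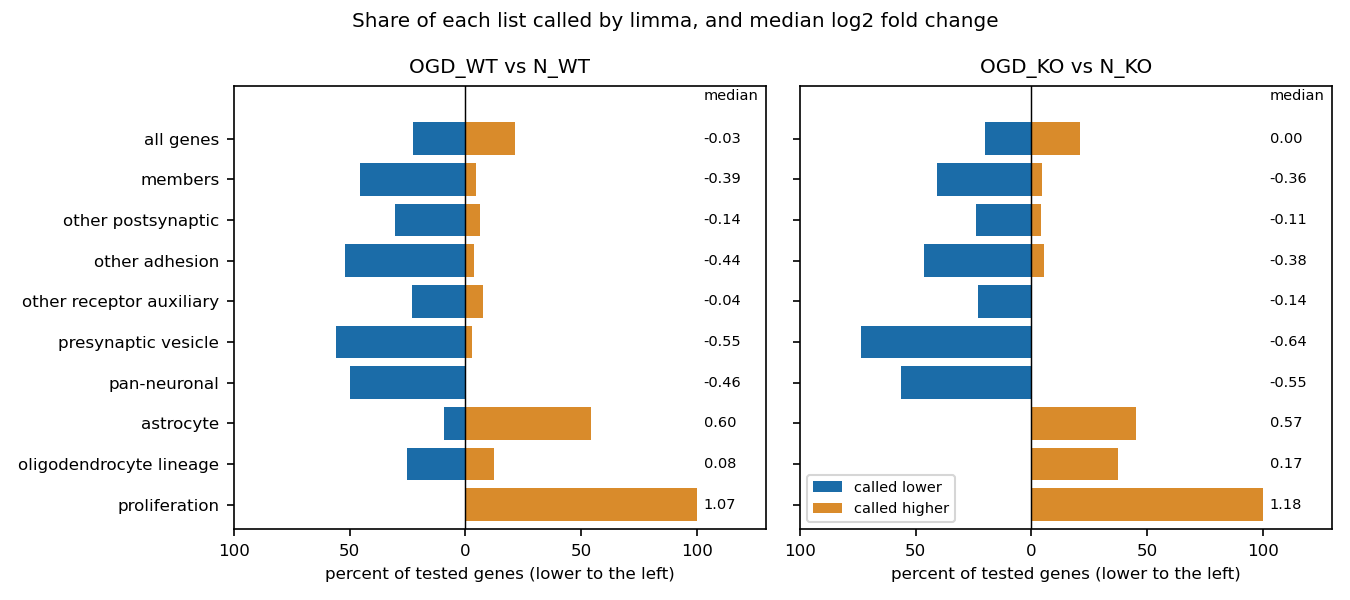
Percent of the tested genes of each list called lower (blue, left) and higher (orange, right) under OGD by limma in wild type and KO cultures, with the median log2 fold change at the right of each bar. Members and other postsynaptic, other adhesion, other receptor auxiliary, presynaptic and pan-neuronal genes lean to the left. Proliferation and astrocyte genes lean to the right, and all genes are nearly even.

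Levels between genes were compared as CPM per kilobase of exon. In N_WT Neto2 stood highest at 46.6 ± 11.4 CPM per kb (SD, n = 5), followed by Ppp1r9b at 38.4 ± 3.31, Camk2b at 36.1 ± 6.62 and Cnksr2 at 33.1 ± 6.29. These neighbours in the order lay within their spread. Synpo was lowest at 0.755 ± 0.0732. Under OGD in wild type Ppp1r9b was first at 28.8 ± 4.03 CPM per kb, and Neto2 had rank 4 at 23.0 ± 5.24.

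Members at higher levels tended to have lower log2 changes. Across the 44 members the log2 change in KO and the N_WT level per kb, which share no library, had a Spearman correlation of -0.53, and with the wild type change, which shares the N_WT libraries, it was -0.47. Members are not independent replicates, and these values are a description. The corresponding values for exon length were 0.21 and 0.32.

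The knockout comparison asked whether loss of ciRS-7 changed these genes. No member was called in normoxia or under OGD by limma, and 0 members had an unadjusted p under 0.05 in either comparison. Of all genes, limma called 5 of 14152 in normoxia (0.0353%, with 0.0141% lower and 0.0212% higher) and 4 of 14185 under OGD (0.0282%, with 0.00705% lower and 0.0211% higher), and 1.81% and 1.78% had an unadjusted p under 0.05. Calibrated p-values would give a share of 0.05 when no gene differs, so these p-values were conservative and 0 members is close to the share over all genes. The voom fit also called 0 members in both, and a fit with library weights called 2 in normoxia and 13 under OGD, where it called 926 and 4757 of all genes.

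The differences between genotypes were small for every role. In normoxia the fitted log2 differences, KO minus wild type, ranged from -0.15 for Homer3 and Lrrtm3 to 0.18 for Nrxn3, with 95% intervals within -0.51 to 0.49. Under OGD they ranged from -0.16 for Dlg2, Homer1 and Cnksr2 to 0.27 for Synpo, with 95% intervals within -0.83 to 0.74. Nrxn3 was at 0.18 (95% interval -0.11 to 0.46) and 0.19 (-0.12 to 0.50), and Synpo under OGD at 0.27 (-0.21 to 0.74). A p that misses the threshold does not show that the genotypes are alike.

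A joint fit of the 20 libraries tested whether the OGD change itself depended on genotype. Limma called 0 of 13688 genes, and 0.731% had an unadjusted p under 0.05. No member was called, and 0 members had an unadjusted p under 0.05, with the smallest at 0.324, for Synpo. The share over all genes lies below the 0.05 that calibrated p-values give when no gene differs. These p-values were therefore conservative, and the count of 0 members carries little weight. The differences of the members' changes, KO minus wild type, ranged from -0.15 to 0.31, and the 95% intervals extended 0.42 to 0.82 to either side. For Dlg1 the difference was -0.05 (95% interval -0.55 to 0.44), for Nrxn3 0.02 (-0.46 to 0.50) and for Ddn 0.18 (-0.35 to 0.71).

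**Figure D5:**
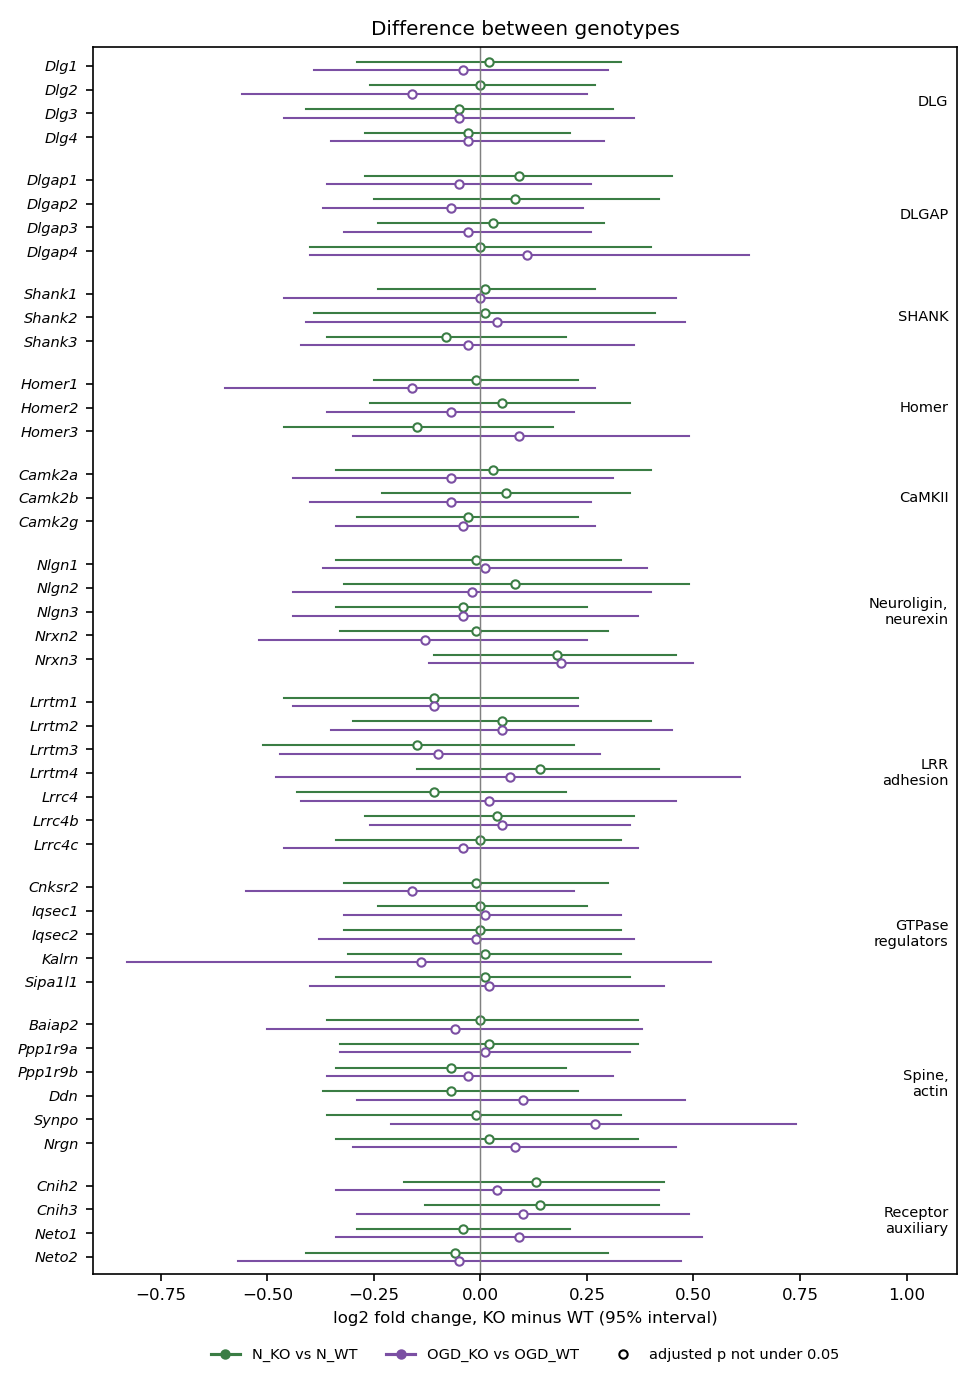
Log2 difference between genotypes (x axis, KO minus wild type, with 95% intervals from limma) of the 44 members, grouped by role on the y axis, in normoxia (green) and under OGD (purple), with 5 libraries per group. No member is called, and the interval of every member includes 0.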

How the data were processed

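RNA was sequenced from 20 libraries. The authors deposited 4 tables, 1 per comparison and each scaled on its own, of log2 CPM for 10 libraries, and the build is mm10 per the submitters' processing notes. The libraries came from a stranded total RNA kit, per the labels' protocols. The aligner, counting, strand setting, annotation and scaling are not given in the sources used here.

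The deposited values of each gene and group lie where clipping at the 10th and 90th percentile (weights 0.6 and 0.4) puts them, as inferred from the values. This was undone, after which at least 99.91% of values of up to 500 reads in every library were whole reads within 0.05. Values per library, means and fits use the log2 CPM with clipping undone. Each table was fitted over all genes with limma 3.58.1 in R 4.3.3 (eBayes with trend, two-sided) and genes with a Benjamini-Hochberg adjusted p under 0.05 were called. The interaction used 13688 genes shared by the 4 tables, whose recovered reads were rescaled together to log2 CPM (prior count 2), and limma's duplicateCorrelation blocked on culture (consensus correlation -0.169). The fits were also run on simulated libraries without batch, pairing or batch adjustment, so that run cannot speak to these.

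N and OGD libraries of a number share genotype label and batch, so the numbers pair them, although their deviations from the group means correlated at -0.643 to 0.057 in wild type and -0.79 to -0.065 in KO. The lowest value belonged to replicate 3 in both genotypes. Replicates 1, 3 and 5 are each alone in their batch label within a genotype. They had -0.282, -0.643 and -0.235 in wild type and -0.213, -0.79 and -0.293 in KO. Replicates 2 and 4, which share a label, had -0.004 and 0.057 in wild type and -0.074 and -0.065 in KO. An adjustment for batch before deposit was not tested. If it was made, the p-values measure the spread of adjusted values and may be too small. The replicate block is an alternative fit. Numbers do not pair genotypes, since their batches differ for replicates 2 to 5 and no label ties them.

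Values in every library are given for the member with the largest change in wild type in each of 10 roles and for members called against their role in both genotypes. Further members are given by their changes. Up to 2 rising and 2 falling genes of each other synaptic list were eligible for naming. Members, lists and rules were chosen with earlier results of these data known. Besides the roles, the lists held other postsynaptic, adhesion, receptor auxiliary and presynaptic vesicle genes and pan-neuronal, astrocyte, oligodendrocyte lineage, microglia, proliferation and endothelial and mural markers. Alternatives, beyond the block, were the deposited values, voom, a prior count of 0.5, median ratio and total read scaling, a filter at a mean log2 CPM of 1, library weights, a batch covariate, batch 3 cultures alone, and leaving out libraries or cultures. The total read scaling, the batch 3 cultures and the fits without a culture were chosen after seeing the data. Gene positions and exon lengths came from GENCODE for GRCm38, matched by symbol, and promoters from RefSeq for GRCm38.p6.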

Additional observations from a re-analysis of the deposited data

Results flagged for a closer look

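For 11 of 176 sets of 5 values (1 member in 1 group), 1 library lay apart: its distance to the nearest value was over 0.71 of the whole span. Chance gives about 1 in 20, or 8.8. Values are log2 CPM.

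In wild type, Iqsec2 was at 5.28 in OGD_WT replicate 5 against 4.5 to 4.65 in the others. N_WT replicate 5 had Homer1 at 7.25, where the others had 7.01 to 7.08, and Nlgn2 at 6.87, where they had 7.64 to 7.84. N_WT replicate 4 had Homer3 at 2.91, the others 3.28 to 3.41.

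In KO, Dlg3 was at 6.19 in OGD_KO replicate 4 against 5.83 to 5.91, and Cnih3 at 3.34 in that library against 3.96 to 4.21. Dlgap2 was at 5.17 in OGD_KO replicate 2 against 4.54 to 4.63. Camk2g was at 5.38 in OGD_KO replicate 5 against 5.74 to 5.86, and Neto2 at 5.96 there against 7.15 to 7.47. In normoxia, N_KO replicate 2 had Lrrtm4 at 4.85, the others 5.36 to 5.5, and N_KO replicate 5 had Baiap2 at 3.62, the others 4.41 to 4.67.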

How the results depend on the processing

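The members' medians under OGD were negative in both genotypes in every fit run. Total read scaling moved them from -0.39 to -0.67 in wild type and from -0.36 to -0.65 in KO, where it called 31 members against 20. Of all genes it called 6768 in KO, against 5884. Library weights called 41 members in wild type and 39 in KO under OGD, where they called 12309 and 10573 of all genes, and 2 and 13 between genotypes in normoxia and under OGD; the cause was not tested. The batch 3 cultures alone called 10 members and 2341 of all genes in KO, from fewer libraries. The deposited values called 29 in wild type and 30 in KO, and 8280 and 8024 of all genes against 6313 and 5884.

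With the replicate block limma called 24 members in wild type and 19 in KO, and 5681 and 4829 of all genes. It added Camk2g, Lrrtm3 and Ppp1r9a and dropped Lrrtm2 in wild type and dropped Iqsec1 in KO, and changed no other member's call. In the interaction 0 members were called with it. Between genotypes it also called 0, but numbers do not pair genotypes, so that fit carries no weight.

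Leaving out 1 library or 1 culture, limma called 15 to 32 members in wild type (medians -0.47 to -0.33) and 14 to 25 in KO (medians -0.45 to -0.27). Of all genes, the same fits called 4313 to 6993 in wild type and 4025 to 5930 in KO. Between genotypes it called 0 throughout, with medians of -0.03 to 0.03 in normoxia and -0.07 to 0.03 under OGD, and the interaction called 0. Of the calls, 17 of 22 in wild type and 17 of 20 in KO held in all 10 fits without 1 library. Of members not called, 7 in wild type and 10 in KO passed in at least 1 of them.

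Among the 12 members given in every library, the sign changed for Homer1 and Dlgap4, which the reported fits did not call. Homer1 was at -0.03 in wild type and -0.17 in KO under total read scaling, which lowers all genes together, and in KO at -0.01 without OGD_KO replicate 2 and -0.03 to 0.23 without both libraries of a culture. Dlgap4 ranged from -0.64 to 0.08 in wild type, without culture 5 and culture 2, and from -0.23 to 0.01 in KO without culture 2 and culture 4, and was at 0.03 without OGD_KO replicate 4. Of 576 refitted changes of the 12 members given in every library, 548 kept direction and side of the threshold, 17 lost the threshold and 4 gained it.

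The 5 libraries per group leave 95% intervals of 0.28 or more to either side of a member's OGD change.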
